A study of Mus musculus with 10 samples.

Results

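Ubiquitin is a small protein that is joined to other proteins by a cascade of enzymes, and the transcripts of these enzymes were compared between leukaemia cells and the myeloid cells of leukaemic mouse marrow. The genes were taken by name from a table of 10141 genes: 23 whose names begin with Ube2, 61 Rnf genes, 39 Trim genes and 35 Usp genes, 158 in all. No row carried a name beginning with March, but 4 rows carry a whole number in place of a name, of the kind a spreadsheet stores for days in March; they may be March ligases and are not analysed here. By the same rule Ube2c and Usp18 were left out. The Ube2 genes were read as conjugating enzymes (E2), the Rnf and Trim genes as 100 ligases (E3) and the Usp genes as deubiquitinases (DUB).

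Mouse cells carrying the MLL-AF9 fusion and a GFP reporter had been thawed and injected into tail veins of CD45.1 recipient mice, and marrow was taken once GFP+ cells made up 2% of peripheral blood. The leukaemia group was the GFP+ cells of that marrow (5 libraries), and the myeloid group was the GFP-negative, CD11b+ cells around them (5 libraries), which the series design also describes as CD45.2-negative. Both groups therefore came from leukaemic marrow, and the study held no marrow of healthy mice among the samples used here. The genotype field reads MLL-AF9/GFP and the cell type field reads as leukaemia in all 10 libraries, so the groups were taken from the titles. Whether each library is a mouse of its own is not said in the labels, so the p-values speak of the spread among these 10 libraries, which may be technical.

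In this pathway an E1 enzyme activates ubiquitin, an E2 carries it, and an E3 chooses the protein that receives it. RING-type E3s, among them most Rnf and Trim proteins, hold the E2 and the substrate together, and chains of different linkage mark proteins for the proteasome, for sorting at membranes or for signalling. Deubiquitinases of the USP family take ubiquitin off again, and related E2s carry ubiquitin-like proteins such as SUMO, NEDD8 and ISG15. In myeloid cells the system is known for its part in interferon and NF-kB signalling, and in dividing cells for its part in DNA repair and the cell cycle.

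The deposited values are variance-stabilised log2 values, from which whole reads were recovered; values below are normalised reads (reads divided by the library's size factor) unless a log2 difference is named. The table held 24099314 to 30879234 recovered reads in leukaemia libraries and 24712530.0 to 32247368 in myeloid libraries. The sum of Hoxa9, Hoxa10 and Meis1, genes of the MLL-AF9 programme, was 7337 to 9133 in leukaemia libraries and 96.5 to 159.7 in myeloid libraries. The sum of 7 genes of sorted myeloid cells, among them Itgam, which encodes CD11b, was 56920.1 to 62049.5 in leukaemia libraries and 1742941 to 2833189 in myeloid libraries, so the labels and the defining markers went the same way. Myeloid replicates 2 and 4 held less of the macrophage list, of which 4 of 9 genes are in the table. Their sum was 4091 to 5621 in leukaemia libraries, 1846 and 3786 in these myeloid libraries and 14994 to 23493 in the other myeloid libraries. The gap was mostly Apoe (823 and 2624, against 12645 to 20278), while Vcam1 differed little among myeloid libraries (949 to 1230) and was 3.78-fold higher in leukaemia. These 2 libraries also held less of Cd74 and the H2 genes of the dendritic and MHC class II list. On that list Siglech, at low values, went the other way (375 and 319, against 193 to 221), and Flt3 did not set them apart. In sorted bulk cells, fewer cells of a type and less RNA per cell cannot be told apart.

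Most ligases were lower in the leukaemia cells, and the conjugating enzymes and deubiquitinases split closer to evenly, with the lean of the last 2 kinds depending on how libraries are scaled. Of the 158 genes, 135 passed the filter on low values (a mean more than 1 unit above the lowest deposited value, about 145 normalised reads), and all 135 differed between the groups (limma, Benjamini-Hochberg adjusted p under 0.05), 45 higher and 90 lower. That 135 of 135 passed is no result about these genes, since 99.8% of the 8079 tested genes passed, 49.1% higher and 50.7% lower. By kind, 9 E2 genes were higher and 12 lower, 24 E3 genes were higher and 59 lower (71.1%), and 12 DUB genes were higher and 19 lower. With reads scaled to the total of the table these counts became 14 and 5 for E2, 28 and 36 for E3, and 17 and 6 for DUB, against 57.2% higher and 27.6% lower over all tested genes. With quantile normalisation they were 10 and 7 for E2, 22 and 52 for E3, and 13 and 11 for DUB, against 47.0% higher and 41.0% lower over all tested genes. Lower genes outnumbered higher ones under both of these scalings among the ligases and not among the other kinds. At a log2 difference of at least 1 in size, 12 of the 135 were higher and 29 lower, against 9.52% and 18.1% of all tested genes in those directions. Of the 135, 121 had group ranges without overlap, a share of 89.6%, against 86.8% of all tested genes.

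Part of each direction rests on the scaling. The normalised reads of the table summed to 22456439 ± 214538 in leukaemia libraries and 35023476 ± 2549258 in myeloid libraries (SD, n = 5 each). With the authors' size factors the median log2 difference over all tested genes was -0.157, with quantile normalisation it was 0.091, and with reads scaled to the total of the table it was 0.429. Scaling to the total shifted the median of all genes by 0.639 relative to the same reads with the size factors. Set against the all-gene median of the same scaling, the median of the E3 genes lay 0.41, 0.422 and 0.496 below it under the size factors, quantile and total scaling. The E2 median lay 0.071, 0.025 and 0.071 below it and the DUB median 0.181, 0.022 and 0.22 below it. Of the 83 tested E3 genes, 57, 59 and 58 lay below the all-gene median under these scalings, and 56 did so under all of them. For 103 of the 135 genes the direction, called or not, was the same under all 3 scalings, 44 higher and 59 lower. The changes of direction are given where the genes are described. All 29 genes lower by a log2 difference of at least 1, and all 12 higher by as much, kept their direction under every scaling. This is no test of them, since the shift of 0.639 by total scaling is smaller than 1 and differences of that size could hardly turn.

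**Figure D1:**
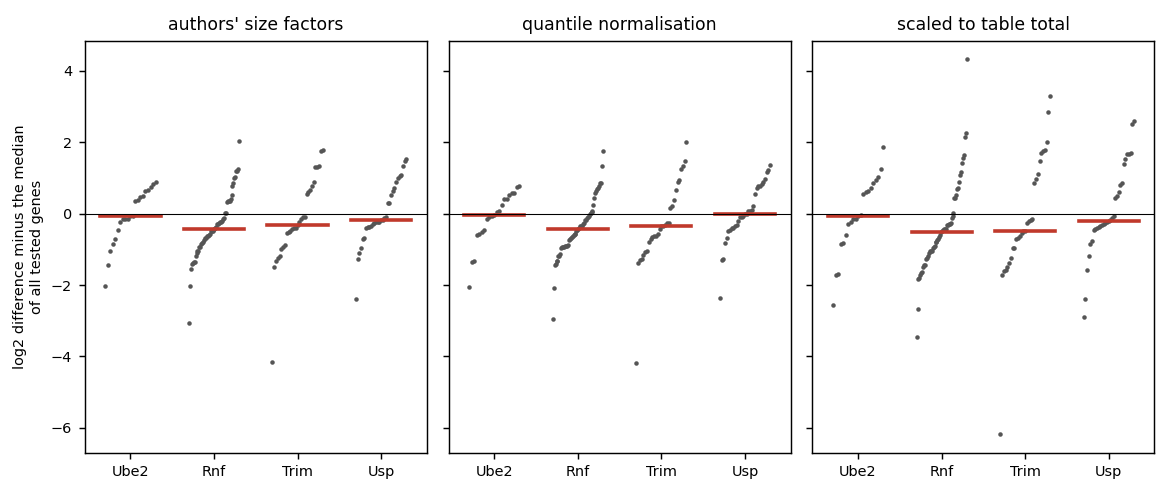
Log2 difference (leukaemia minus myeloid) of each tested gene after subtracting the median of all 8079 tested genes, in the Ube2, Rnf, Trim and Usp families, under the authors' size factors, quantile normalisation and scaling to the table total; each dot is a gene and each bar a family's median. The Rnf and Trim bars lie below 0 in all 3 panels, and the Ube2 bar lies within 0.071 of it.

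Among the E2 genes, 4 fell by more than 1 on the log2 scale in leukaemia cells (Ube2h, Ube2b, Ube2l6 and Ube2d3) and none rose by as much. Such falls were 19.0% and such rises 0.0% of the tested E2 genes, against 18.1% and 9.52% of all tested genes. Ube2q2, Ube2t, Ube2e1 and Ube2e3 led the rises on this scale, which shortens differences of genes with few reads. By the ratio of means Ube2t was 3.01-fold and Ube2q2 2.03-fold higher, while Ube2d3 was 2.10-fold lower. Of the 21 tested E2 genes, 18 had groups that did not overlap (85.7%, against 86.8% of all tested genes). The 3 with overlap were Ube2g1, Ube2o and Ube2v2.

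The UBE2D and UBE2E enzymes and Ube2w are grouped here as the general E2s that work with many RING ligases. Their 6 tested genes split into 3 higher and 3 lower, near the 49.1% and 50.7% of all tested genes. Ube2d3, the E2 with the most reads, had 10093, 10444, 10115, 10610.0 and 9709 normalised reads in leukaemia libraries, against 17251, 23618, 22861, 21763 and 21323 in myeloid libraries. The leukaemia libraries were close together and the lowest myeloid library, replicate 1, was still far above them. Ube2d3 was 2.10-fold lower in leukaemia (log2 difference -1.02 ± 0.083 (SE), limma adjusted p = 7.58e-08). Its paralogues Ube2d1 and Ube2d2a were 1.42-fold and 1.35-fold lower with the size factors, but went the other way when scaled to the table total (log2 0.15 and 0.21), and Ube2d2a also under quantile normalisation (0.14). Of the UBE2E branch of this group, Ube2e1 and Ube2e3 rose. Ube2e1 had 1509, 1699, 1619, 1648 and 1675 normalised reads in leukaemia libraries, against 802, 1086, 989, 744 and 1064 in myeloid libraries, and no leukaemia library was as low as the highest myeloid library. This was 1.74-fold higher (log2 difference 0.58 ± 0.073 (SE), limma adjusted p = 5.96e-06), although 16.1% of its exon length overlaps another gene and the counting is not stated to use strand. Ube2e3 had 1236, 1112, 1222, 1437 and 1313 normalised reads in leukaemia libraries, against 666, 839, 729, 901 and 685 in myeloid libraries, again without overlap. It was 1.65-fold higher (log2 difference 0.49 ± 0.069 (SE), limma adjusted p = 1.44e-05). The remaining UBE2E gene, Ube2e2, was below the filter and had 0 reads in every leukaemia library, against 17.5, 22.5, 39.1, 16.4 and 16.3 normalised reads in myeloid libraries. Set against a floor of 3 counts over the group, that is at least 46.9-fold lower. Ube2w, which puts ubiquitin on the N terminus of proteins, was 1.56-fold higher (2054 ± 193 normalised reads in leukaemia libraries and 1317 ± 117 in myeloid libraries).

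Ube2b encodes the mouse RAD6B, the E2 that works with RNF20 and RNF40 on histone H2B and with RAD18 in DNA damage tolerance. It had 1482, 1715, 1491, 1689 and 1577 normalised reads in leukaemia libraries, against 5183, 7310.4, 5344, 6817 and 5172 in myeloid libraries. Every leukaemia library lay far below the lowest myeloid library, replicate 5. Ube2b was 3.75-fold lower (log2 difference -1.60 ± 0.094 (SE), limma adjusted p = 3.12e-09). Per kilobase of exon Ube2b made up 8.83% ± 0.357 in leukaemia libraries and 21.8% ± 1.88 in myeloid libraries of the whole Ube2 family (SD, n = 5 each). Ube2t, the E2 of the Fanconi anaemia repair pathway, went the other way with 423, 412, 385, 436 and 335 normalised reads in leukaemia libraries, against 74.6, 206, 121, 148 and 113 in myeloid libraries. The groups did not overlap, and the myeloid values were low and spread widely. Ube2t was 3.01-fold higher in leukaemia (log2 difference 0.66 ± 0.078 (SE), limma adjusted p = 3.1e-06).

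Among the E2s of ubiquitin-like proteins, those of ISG15 and NEDD8 were lower with the size factors. Ube2l6, the E2 of the interferon-induced modifier ISG15, had 416, 606, 253, 349.8 and 417 normalised reads in leukaemia libraries, against 1596, 2014, 1266, 1374 and 1284 in myeloid libraries. Leukaemia replicate 2 was the highest of its group and replicate 3 the lowest, and no leukaemia library reached the lowest myeloid one. Ube2l6 was 3.69-fold lower (log2 difference -1.20 ± 0.12 (SE), limma adjusted p = 5.51e-07). Ube2f, an E2 for NEDD8, was 1.77-fold lower, but did not pass when scaled to the table total (log2 -0.18). Ube2z, which carries FAT10 and ubiquitin, was 1.28-fold lower but 0.28 on the log2 scale when scaled to the table total and 0.01 under quantile normalisation.

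Ube2h, which works with the multi-subunit CTLH ligase and is known for its role in red cell maturation, showed the largest log2 difference among the tested E2s. It had 881, 818, 768, 733 and 735 normalised reads in leukaemia libraries, against 4203, 6483, 5342, 5557 and 5574 in myeloid libraries. All leukaemia libraries lay far below all myeloid libraries, and myeloid replicate 1 was the lowest of its group. Ube2h was 6.90-fold lower (log2 difference -2.19 ± 0.088 (SE), limma adjusted p = 1.1e-10). Ube2q2, a large E2 with an extended N terminus, had 1823, 1591, 1871, 1816 and 1616 normalised reads in leukaemia libraries, against 753, 942, 998, 764 and 833 in myeloid libraries. It was 2.03-fold higher without overlap (log2 difference 0.73 ± 0.066 (SE), limma adjusted p = 2.01e-07). Its paralogue Ube2q1 was 1.28-fold lower with the size factors and higher by 0.28 and 0.16 (log2) under total and quantile scaling. Ube2l3, the E2 favoured by RBR and HECT ligases, was 1.19-fold lower, with the direction turned under both other scalings (log2 0.39 and 0.32), and 28.6% of its exon length overlaps another gene. Ube2o, a large enzyme that acts as E2 and E3 together, was 1.34-fold higher with overlapping groups.

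Of the 3 E2s of endoplasmic reticulum (ER)-associated degradation, Ube2j1, which is anchored in the ER membrane, was 2.03-fold lower (1997 ± 184 normalised reads in leukaemia libraries and 4054 ± 297 in myeloid libraries). Ube2k was 1.32-fold higher. Ube2g1 was 1.22-fold lower, with overlapping groups and a log2 difference of 0.36 when scaled to the table total. Ube2v2, the inactive partner of the E2 for Lys63 chains, was 1.36-fold higher with overlapping groups; its partner Ube2n is not analysed here. Ube2cbp encodes a protein that binds Ube2c and is caught by the name rule without being an E2 by its usual description. It was below the filter, with 79.6, 76.1, 75.5, 66.2 and 95.6 normalised reads in leukaemia libraries, against 10.5, 28.4, 15.9, 16.4 and 19.0 in myeloid libraries.

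**Figure D2:**
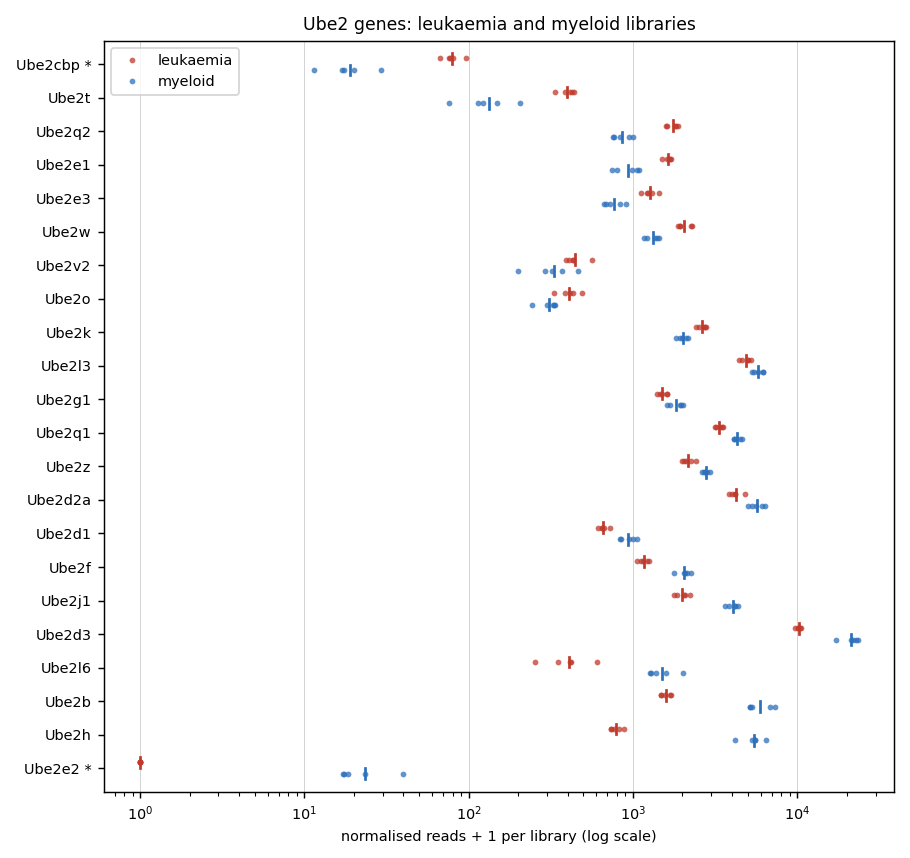
Normalised reads plus 1 (log scale) of 22 of the 23 Ube2 genes in each library, with the 5 leukaemia libraries in red drawn above the 5 myeloid libraries in blue and a bar at each group's mean; genes are ordered by the ratio of means after adding 1 read to each and an asterisk marks genes below the filter. Ube2d3 lies farthest to the right, and Ube2e2 sits at 0 reads in every leukaemia library.

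The Rnf genes leaned most to the lower side of the 4 families. Of the 54 tested genes 14 were higher (25.9%) and 40 lower (74.1%) in leukaemia cells, against 49.1% and 50.7% of all tested genes. Under total scaling 17 were called higher and 25 lower, and 12 were not called, beside 57.2% higher and 27.6% lower over all tested genes. Rnf144a, Rnf11, Rnf13 and Rnf149 fell most on the log2 scale, and Rnf43, Rnf220, Rnf217 and Rnf219 rose most.

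Rnf144a encodes an RBR-type ligase that is known to target DNA-PKcs. It had 1322, 1376, 1307, 1311 and 1261 normalised reads in leukaemia libraries, against 13047, 20068, 15085, 20198 and 15985 in myeloid libraries. The leukaemia libraries differed little among themselves, while myeloid replicates 2 and 4 were highest. Rnf144a was 12.8-fold lower (log2 difference -3.22 ± 0.11 (SE), limma adjusted p = 1.79e-11). Its paralogue Rnf144b was 1.39-fold higher, with overlapping groups (2276, 2179, 1594, 1884 and 1605 in leukaemia libraries, against 1165, 1664, 1202, 1661 and 1155 in myeloid libraries).

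Ligases of the endosome, lysosome and ER membrane were lower nearly throughout. Of the 17 tested genes on this list 2 were higher and 15 lower (88.2%, against 50.7% of all tested genes). By direction alone 11 of the 15 were lower under all 3 scalings. Scaled to the table total 3 were called higher and 10 lower, beside 57.2% and 27.6% over all tested genes. With the size factors the median log2 difference of the 17 was -0.75, against -0.157 for all tested genes. Rnf13 and Rnf149 belong to the PA-TM-RING family, membrane ligases with a protease-associated domain facing the lumen. Rnf13 had 1849, 1528, 1612, 1429.7 and 1445 normalised reads in leukaemia libraries, against 5452, 7187, 6593, 6297 and 6096 in myeloid libraries. Rnf149 had 1639, 1508, 1455, 1158 and 1299 normalised reads in leukaemia libraries, against 4538, 5497, 5143, 5373 and 5279 in myeloid libraries. For both, all leukaemia libraries lay below all myeloid libraries, and leukaemia replicate 1 was the highest of its group. Rnf13 was 4.02-fold lower (log2 difference -1.70 ± 0.077 (SE), limma adjusted p = 3.05e-10) and Rnf149 3.66-fold lower (log2 difference -1.56 ± 0.076 (SE), limma adjusted p = 5.62e-10), with 24.9% of the Rnf149 exon length shared with another gene. The related Rnf167 was 3.29-fold lower and Rnf130 1.89-fold lower. Rnf130 had the most reads per kilobase of exon of the Rnf family in both groups, 3311 reads per kb in leukaemia libraries and 6260.0 in myeloid libraries, and its share of the family was nearly the same, 14.5% ± 0.662 in leukaemia libraries and 15.2% ± 0.533 in myeloid libraries. Rnf128 (GRAIL, known from T cell anergy) belongs to the same family and was 1.58-fold higher, at low values (257 ± 26.6 normalised reads in leukaemia libraries and 163 ± 48.0 in myeloid libraries).

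In the ER membrane, Rnf145, a ligase for the sterol enzyme HMG-CoA reductase, was 3.84-fold lower. Rnf139 (TRC8), Rnf5 and Rnf170 were 1.45-fold, 1.54-fold and 1.41-fold lower with the size factors, and their direction turned when scaled to the table total (log2 0.10, 0.01 and 0.15). Rnf185, Rnf103 and Rnf24 were 1.95-fold, 2.48-fold and 2.42-fold lower. Exons of Rnf139, Rnf5 and Rnf24 overlap other genes over 22.3%, 24.7% and 16.5% of their length. Rnf121, a Golgi and ER ligase, was 1.19-fold lower with overlapping groups, and higher by 0.37 (log2) when scaled to the table total. Rnf215 was 1.73-fold lower at low values, and did not pass when scaled to the table total (log2 -0.16). Rnf19a and Rnf19b, RBR ligases with membrane segments, were 3.16-fold and 1.99-fold lower. Rnf126, which clears membrane proteins that miss the ER, was the other gene of the list to rise and was 2.33-fold higher (1538 ± 105 normalised reads in leukaemia libraries and 659 ± 57.6 in myeloid libraries).

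Ligases of immune signalling were lower in 8 of 9 cases (88.9%, against 50.7% of all tested genes), and 5 of the 8 kept that direction under all 3 scalings. The median log2 difference of the 9 was -0.89, against -0.157 for all tested genes. Scaled to the table total 2 were called higher and 5 lower, beside 57.2% and 27.6% over all tested genes. Rnf11, part of the A20 complex that restrains NF-kB, had 582, 575, 636, 669.9 and 677 normalised reads in leukaemia libraries, against 3120.2, 5519.7, 5112, 4954 and 4507 in myeloid libraries. Myeloid replicate 1 was the lowest of its group and still far above every leukaemia library. Rnf11 was 7.39-fold lower (log2 difference -2.18 ± 0.11 (SE), limma adjusted p = 9.63e-10). Rnf31 (HOIP), the catalytic part of the ligase for linear chains, was 2.40-fold lower (1232 ± 61.3 normalised reads in leukaemia libraries and 2961 ± 114 in myeloid libraries). Rnf114, Rnf166 and Rnf34 were 2.19-fold, 2.15-fold and 2.39-fold lower. Rnf41 (NRDP1) and Rnf216 (TRIAD3) were 1.44-fold and 1.27-fold lower with the size factors, and went up when scaled to the table total (log2 0.12 and 0.30), Rnf216 also under quantile normalisation (0.07). Rnf125, which acts on RIG-I, was the member that rose, 2.59-fold higher (1106 ± 119.7 normalised reads in leukaemia libraries and 426 ± 187 in myeloid libraries). Rnf213, a giant ligase known as a moyamoya disease gene and as an interferon-induced defence factor, had the most reads of the Rnf genes in leukaemia libraries and over both groups together, and came after Rnf144a in myeloid libraries. It had 11332, 10213, 8866, 8859 and 8753 normalised reads in leukaemia libraries, against 15315, 11559.5, 11281, 15053 and 13207 in myeloid libraries. Leukaemia replicate 1 reached into the myeloid range, and its fall (log2 difference -0.44 ± 0.10 (SE), limma adjusted p = 0.0012) turned into 0.14 and 0.17 under quantile and total scaling.

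Ligases of DNA damage and chromatin held 3 higher and 6 lower genes (33.3% and 66.7%, against 49.1% and 50.7% of all tested genes). Scaled to the table total these became 4 and 2, beside 57.2% higher and 27.6% lower over all tested genes. With 9 tested genes no lean is read from these counts. Rnf168, which spreads ubiquitin on histones around DNA breaks, was 1.95-fold higher (1733 ± 125 normalised reads in leukaemia libraries and 891 ± 130.5 in myeloid libraries), and Rnf4, which ubiquitinates SUMO-carrying proteins, was 1.16-fold higher (4246 ± 137 normalised reads in leukaemia libraries and 3645 ± 177 in myeloid libraries). Rnf138, a ligase of break resection, was 1.23-fold higher. Rnf169, a reader of the mark that Rnf168 sets, was 1.56-fold lower, and its log2 difference was within 0.01 of 0 when scaled to the table total. Rnf20 and Rnf40, which form the ligase for histone H2B together with the Ube2b product, were 1.65-fold and 1.59-fold lower with the size factors, but neither passed when scaled to the table total (log2 -0.08 and -0.03), where Ube2b was still lower (-1.26). Rnf2 (RING1B), the catalytic ligase of Polycomb complex PRC1, was 1.14-fold lower, and higher by 0.46 (log2) when scaled to the table total. Rnf111 (Arkadia), which acts in TGF-beta signalling, was 2.64-fold lower. Rnf146, which recognises poly(ADP-ribose), was 2.00-fold lower, but 70.2% of its exon length overlaps another gene.

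The Rnf genes that rose most lie outside these lists. Rnf43, which removes Frizzled receptors of the Wnt pathway from the cell surface, had 1047, 1063, 1210.1, 1336 and 1259.8 normalised reads in leukaemia libraries, against 73.5, 93.4, 48.8, 73.2 and 54.4 in myeloid libraries. Even the lowest leukaemia library, replicate 1, stood far above the highest myeloid library, replicate 2. Rnf43 was 17.2-fold higher by the ratio of means (log2 difference 1.87 ± 0.065 (SE), limma adjusted p = 3.01e-11); the variance-stabilised scale shortens differences of genes with few reads, which is why the log2 value is smaller than the ratio. Rnf217, an RBR ligase known to act on the iron exporter ferroportin, had 862, 937, 848, 860.0 and 847 normalised reads in leukaemia libraries, against 163, 150.1, 258, 261 and 276 in myeloid libraries. It was 3.93-fold higher (log2 difference 1.05 ± 0.072 (SE), limma adjusted p = 1.54e-08). Rnf219, a ligase of the origin recognition complex, had 949.5, 852, 951, 841 and 985 normalised reads in leukaemia libraries, against 249.5, 241, 250.3, 294 and 167 in myeloid libraries. It was 3.81-fold higher (log2 difference 1.04 ± 0.064 (SE), limma adjusted p = 5.02e-09). Rnf220, which has been linked to beta-catenin stability, had 3717, 4034, 3955, 3967 and 3865 normalised reads in leukaemia libraries, against 1806, 1629, 1475, 1374 and 1424 in myeloid libraries. It was 2.53-fold higher (log2 difference 1.11 ± 0.063 (SE), limma adjusted p = 2.29e-09). In none of these 4 genes did a leukaemia library reach down to a myeloid one. Rnf7 (SAG), a RING subunit of cullin ligases, was 1.80-fold higher, and was chosen for mention after its values were seen.

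**Figure D3:**
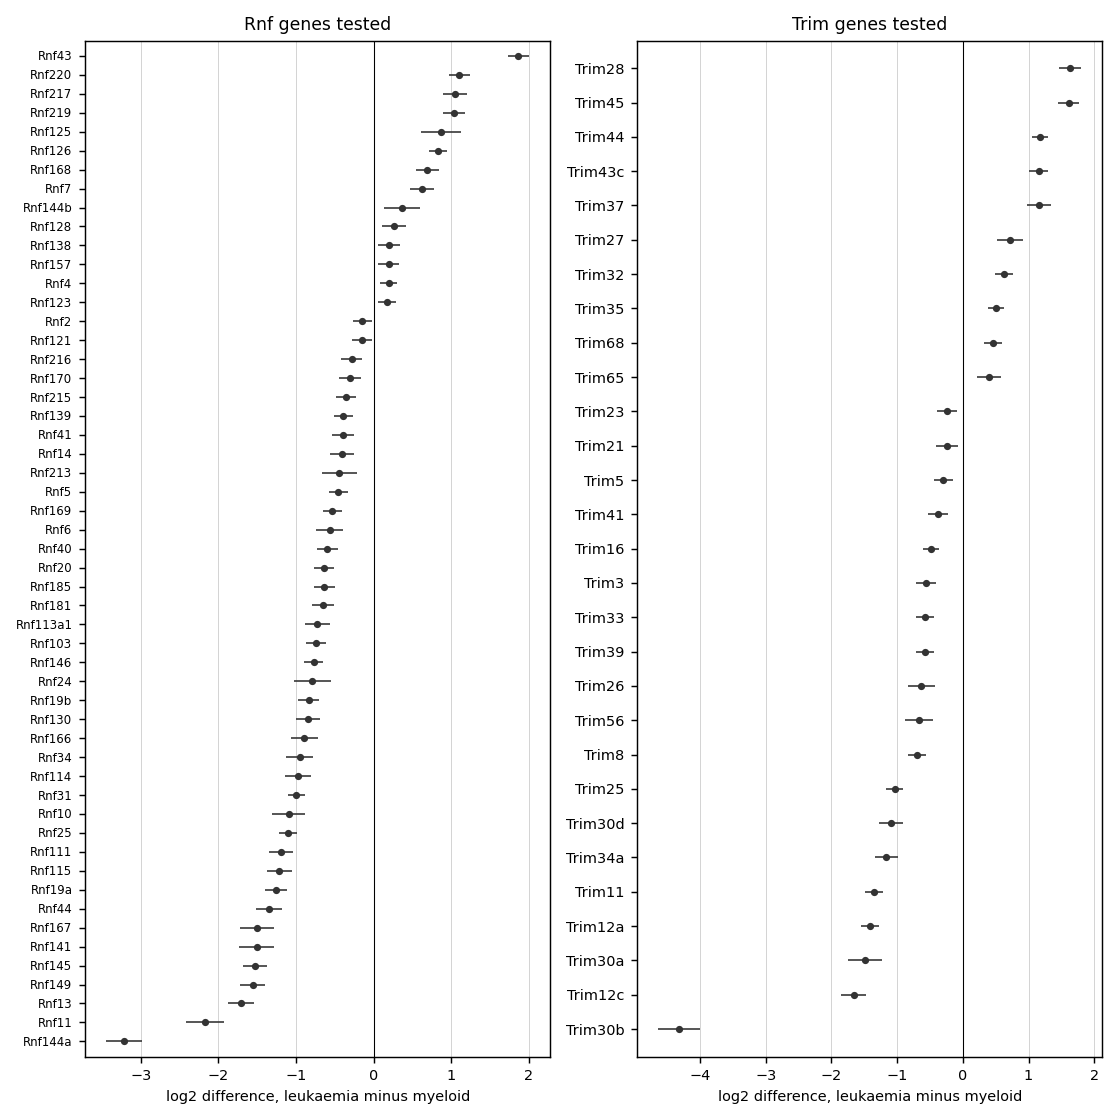
Log2 difference (leukaemia minus myeloid, deposited variance-stabilised scale) of 53 of the 54 Rnf genes and the 29 Trim genes tested, with dots at the estimate and lines for the 95% confidence interval from limma. Most dots lie left of 0 in both panels, Rnf144a and Trim30b farthest.

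Among the 29 tested Trim genes, 10 were higher (34.5%) and 19 lower (65.5%) in leukaemia cells, against 49.1% and 50.7% of all tested genes. Both ends were occupied, as 5 rose and 8 fell by at least 1 on the log2 scale. These were 17.2% and 27.6% of the tested Trim genes, against 9.52% and 18.1% of all tested genes. The lower end was held by antiviral Trim genes and the upper end by Trim28, Trim45, Trim44 and Trim43c. All 11 tested genes on the list of antiviral and interferon-linked Trim genes were lower, against 50.7% of all tested genes. Their median log2 difference was -1.09, against -0.157 for all tested genes. By direction alone 9 of them were lower under all 3 scalings, Trim5 and Trim21 being higher when scaled to the table total (log2 0.22 and 0.28). With that scaling 7 were called lower, 1 higher and 3 not called, beside 27.6% lower and 57.2% higher over all tested genes. The summed reads of 8 interferon-stimulated marker genes, among them the gene of ISG15 itself, were 8220.1 to 13593 in leukaemia libraries and 22553 to 38417 in myeloid libraries, and all 8 were lower in leukaemia; their part in the Trim result was not tested.

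Trim30b, Trim30c, Trim30a, Trim30d, Trim12a, Trim12c, Trim34a, Trim34b and Trim5 are neighbours in a single run of genes on mouse chromosome 7 in the RefSeq annotation (GRCm38.p6). These 9 rodent relatives of the antiviral TRIM5 were singled out after their values were seen. Trim34b and Trim30c were below the filter. The other 7 were tested and all were lower, against 50.7% of all tested genes, with a median log2 difference of -1.41. Of these 7, 6 fell by at least 1 on the log2 scale (85.7%, against 18.1% of all tested genes). They are close copies of each other, so reads may have been shared among them and the value of each alone is uncertain. Parts of their promoters are shown because these neighbours moved together. The letters searched were GAAA, any 2 bases and GAAA, the core of the interferon-stimulated response element, on both strands (TTTC, any 2 bases and TTTC on the other), in 250 bases before to 50 after each RefSeq start. They were found for 6 of the 9 genes (66.7%), for 32.1% of the 28 Trim genes with a promoter in the table, and for 4.0% of 27025 genes in the promoter table. Each line gives 30 bases, 5′ to 3′ on the gene's strand, with the match in capitals.
Trim34a, chr7:104244447-104244476, + strand: ctgtatccgctggtttggagTTTCAGTTTC
Trim5, chr7:104288146-104288175, - strand: attggtctgtagagttgtggTTTCTGTTTC
Trim12a, chr7:104315476-104315505, - strand: attggtctgtagagttgtggTTTCTGTTTC
Trim12c, chr7:104353369-104353398, - strand: attggtctgtagagttgtggTTTCTGTTTC
Trim30a, chr7:104465220-104465249, - strand: attggttggtagttctttagTTTCTTTTTC
Trim30d, chr7:104507881-104507910, - strand: attggttggtagttctttagTTTCTTTTTC
The windows of Trim5, Trim12a and Trim12c are identical over these 30 bases, and so are those of Trim30a and Trim30d. Trim30a has another start in the RefSeq table, and the window there (chr7:104446114-104446143, - strand) also holds a match but differs in other bases: cactggttggttgtttttagTTTCTTTTTC. The search found no match in the windows of Trim30b, Trim30c and Trim34b, which says only that these letters are not there. A match describes the sequence and is not a measured binding site.

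Trim30b showed the largest difference of all 135 tested genes, with 188, 83.5, 166, 82.4 and 149 normalised reads in leukaemia libraries, against 6838, 13331, 11260.1, 12435 and 10312 in myeloid libraries. Leukaemia replicates 2 and 4 were the lowest of their group, and every leukaemia library lay far below every myeloid library. Trim30b was 81.0-fold lower (log2 difference -4.32 ± 0.15 (SE), limma adjusted p = 2.71e-11). Trim30a, known to restrain Toll-like receptor signalling through TAB2 and TAB3, had 2648, 2446, 1807, 1976 and 1549 normalised reads in leukaemia libraries, against 5882, 7362, 7911, 5725 and 7018 in myeloid libraries. Its leukaemia replicates 1 and 2 were the highest of their group, as they were for the interferon-stimulated sum (11936 and 13593, against 8220 to 9455 in the other leukaemia libraries). The myeloid libraries did not share such an order. There Trim30a was highest in replicate 3, where the sum was 22822, and the sum was highest in replicate 2 (38417). A link between the gene and the sum was not tested. Trim30a was 3.25-fold lower (log2 difference -1.49 ± 0.12 (SE), limma adjusted p = 7.58e-08). Trim30d was 2.74-fold lower (909.8 ± 148 normalised reads in leukaemia libraries and 2494 ± 312 in myeloid libraries).

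Trim12c, a mouse relative of TRIM5 known to raise interferon and NF-kB signalling, had 1863, 1756, 1713, 1439 and 1772 normalised reads in leukaemia libraries, against 5825, 7439, 6106, 7717 and 5858 in myeloid libraries. Trim12a had 1022, 971, 1071, 916 and 991 normalised reads in leukaemia libraries, against 3147, 3822, 3284, 3954 and 3259.7 in myeloid libraries. In both genes myeloid replicates 2 and 4 were the highest, and the leukaemia libraries lay far below. Trim12c was 3.86-fold lower (log2 difference -1.66 ± 0.087 (SE), limma adjusted p = 1.16e-09) and Trim12a 3.51-fold lower (log2 difference -1.41 ± 0.066 (SE), limma adjusted p = 3.99e-10). Trim34a was 3.44-fold lower, with 23.5% of its exon length shared with another gene. Outside the cluster, Trim25, which adds chains to RIG-I, was 2.25-fold lower (2904 ± 201 normalised reads in leukaemia libraries and 6527 ± 364 in myeloid libraries). Trim56 and Trim26, both linked to antiviral responses, were 1.69-fold and 1.91-fold lower with the size factors. Neither passed when scaled to the table total (log2 -0.12 and -0.25). Trim21, a cytosolic antibody receptor, was 1.29-fold lower with overlapping groups.

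The nuclear Trim cofactors went the other way from each other. Trim28 (KAP1), the corepressor of KRAB zinc finger proteins that silences endogenous retroviruses, had the most reads of the Trim genes in leukaemia libraries and over both groups together, but not in myeloid libraries. It had 9613, 11133, 10786, 11552 and 12238 normalised reads in leukaemia libraries, against 3107, 3755, 2873, 3117 and 3112 in myeloid libraries. All leukaemia libraries lay far above all myeloid libraries, with leukaemia replicate 5 the highest. Trim28 was 3.47-fold higher (log2 difference 1.63 ± 0.078 (SE), limma adjusted p = 4.79e-10), and per kilobase of exon it made up 25.3% ± 1.91 in leukaemia libraries and 5.08% ± 0.393 in myeloid libraries of the Trim family. Trim27 was 1.88-fold higher (2726 ± 318 normalised reads in leukaemia libraries and 1454 ± 242 in myeloid libraries). Trim33 (TIF1-gamma), a regulator of TGF-beta signalling and blood cell differentiation, was 1.61-fold lower (2083 ± 128 normalised reads in leukaemia libraries and 3362 ± 306 in myeloid libraries); its log2 difference was -0.05 when scaled to the table total.

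Trim45, linked to MAP kinase and NF-kB signalling, had 994, 1154, 1358, 1365 and 1339.6 normalised reads in leukaemia libraries, against 121, 194, 125, 146 and 140.0 in myeloid libraries. All leukaemia libraries lay above all myeloid libraries, with leukaemia replicate 1 the lowest of its group. Trim45 was 8.55-fold higher (log2 difference 1.61 ± 0.073 (SE), limma adjusted p = 3.22e-10). Trim44, an atypical family member without a RING domain, had 3319.5, 2972, 3446, 3243 and 3229 normalised reads in leukaemia libraries, against 1211, 1041, 1172, 1212 and 1116 in myeloid libraries. It was 2.82-fold higher (log2 difference 1.18 ± 0.054 (SE), limma adjusted p = 3.34e-10), again with no overlap. Trim43c, from a small set of near copies best known from early embryos, had 692, 527, 803, 634 and 691 normalised reads in leukaemia libraries, against 84.0, 112, 97.7, 129.9 and 111 in myeloid libraries. It was 6.25-fold higher (log2 difference 1.16 ± 0.068 (SE), limma adjusted p = 3.22e-09); 38.6% of its exon length overlaps another gene, and reads may be shared with Trim43a and Trim43b. Those near copies were below the filter, Trim43a with 12.1 ± 3.96 normalised reads in leukaemia libraries and 1.92 ± 2.73 in myeloid libraries and Trim43b with 42.5, 41.4, 34.5, 33.1 and 47.3 in leukaemia libraries and 0 reads in every myeloid library, which is at least 53.7-fold higher against a floor of 3 counts over the group.

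The deubiquitinases divided into a few large differences and many modest ones. Usp32, Usp46, Usp25 and Usp53 fell most on the log2 scale in leukaemia cells, and Usp11, Usp20, Usp14 and Usp10 rose most. Of the 31 tested Usp genes, 12 were higher (38.7%) and 19 lower (61.3%), against 49.1% and 50.7% of all tested genes. Only 8 of the 19 kept a lower direction, called or not, under all 3 scalings. Under total scaling 17 were called higher and 6 lower, beside 57.2% higher and 27.6% lower over all tested genes. The genes with overlapping groups were Usp9x, Usp21, Usp34, Usp39 and Usp45.

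Both tested deubiquitinases that recycle chains at the proteasome or free in the cytosol rose, under all 3 scalings. With the size factors 49.1% of all tested genes were higher. Usp14, which trims chains on the proteasome, had 3586, 3328, 3556, 3664 and 3356 normalised reads in leukaemia libraries, against 1087, 1392, 1418, 1125 and 1363 in myeloid libraries. The leukaemia libraries stood well above the myeloid ones. Usp14 was 2.74-fold higher (log2 difference 1.17 ± 0.066 (SE), limma adjusted p = 2.24e-09), although 26.0% of its exon length overlaps another gene. Usp5, which takes apart unanchored chains, was 1.32-fold higher (4581 ± 221 normalised reads in leukaemia libraries and 3478 ± 259.6 in myeloid libraries).

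Of the 7 tested deubiquitinases of histones and DNA damage, 3 were higher and 4 lower (57.1%, against 50.7% of all tested genes). Scaled to the table total 5 were called higher and 0 lower, beside 57.2% and 27.6% over all tested genes. Usp1 and Usp11 were higher under all 3 scalings. Usp11, known from BRCA2-linked repair, had 1209, 1124, 1269, 1397 and 1358 normalised reads in leukaemia libraries, against 259, 369, 176, 221 and 204 in myeloid libraries. No leukaemia library came near the highest myeloid library, replicate 2. Usp11 was 5.18-fold higher (log2 difference 1.36 ± 0.081 (SE), limma adjusted p = 3.73e-09). Usp1, which removes ubiquitin from PCNA and FANCD2, was 1.55-fold higher (5905 ± 322 normalised reads in leukaemia libraries and 3814 ± 588 in myeloid libraries) and per kilobase of exon made up 13.8% ± 0.335 in leukaemia libraries and 6.99% ± 0.815 in myeloid libraries of the Usp family. FANCD2 is a target of the Ube2t product, so both the E2 and the deubiquitinase of the Fanconi pathway were higher. Usp7 (HAUSP), the deubiquitinase of MDM2 and p53, had the most reads of the Usp genes over both groups together, though Usp1 had more in leukaemia libraries and Usp25 and Usp32 in myeloid libraries. It had 5591, 5203, 5468, 5315 and 5235 normalised reads in leukaemia libraries, against 6886, 7245, 7240.1, 8344 and 7179.8 in myeloid libraries. The groups did not overlap and the difference was small, 1.38-fold lower (log2 difference -0.42 ± 0.060 (SE), limma adjusted p = 1.94e-05), and it turned to 0.16 and 0.18 under quantile and total scaling. Usp22, the deubiquitinase of the SAGA complex, was 1.54-fold lower, and 0.01 on the log2 scale when scaled to the table total. Usp3 and Usp21, both known to act on histone H2A, were 1.32-fold and 1.47-fold lower with the size factors but turned when scaled to the total (log2 0.24 and 0.08).

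At endosomes and membranes, Usp32 fell and Usp20 rose. Usp32, a membrane-bound enzyme of the endosome and Golgi, had 1168, 994, 883, 683 and 804 normalised reads in leukaemia libraries, against 6475, 8779.5, 7381, 9515 and 7195 in myeloid libraries. Leukaemia replicate 1 was highest and replicate 4 lowest in its group, and myeloid replicates 4 and 2 were highest in theirs. Usp32 was 8.68-fold lower (log2 difference -2.56 ± 0.11 (SE), limma adjusted p = 2.13e-10). Usp20, which stabilises HMG-CoA reductase and the beta2-adrenergic receptor, had 1250.3, 1052, 1351, 1272 and 1303 normalised reads in leukaemia libraries, against 343, 265, 259, 203 and 202 in myeloid libraries. It was 4.90-fold higher (log2 difference 1.31 ± 0.072 (SE), limma adjusted p = 1.79e-09), and its paralogue Usp33 was 2.11-fold lower (1558 ± 44.0 normalised reads in leukaemia libraries and 3280.3 ± 288 in myeloid libraries). The exons of Usp33 overlap another gene over 15.3% of their length. Usp8 and Usp19 were 1.25-fold and 1.42-fold lower with the size factors, and higher under both other scalings (log2 0.32 and 0.13 when scaled to the total). Usp30, the mitochondrial deubiquitinase that opposes parkin, was 1.21-fold higher.

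Among deubiquitinases of growth and signalling, 4 were higher and 8 lower (33.3% and 66.7%, against 49.1% and 50.7% of all tested genes). Scaled to the table total these became 5 and 3, beside 57.2% higher and 27.6% lower over all tested genes. With 12 tested genes no lean is read from these counts. Usp46 works with WDR48, as does Usp1, and had 1085, 1042, 1091, 1147 and 1149 normalised reads in leukaemia libraries, against 3226, 4479.6, 3688, 4319 and 3451 in myeloid libraries. The leukaemia libraries were tightly grouped far below the myeloid ones. Usp46 was 3.48-fold lower (log2 difference -1.42 ± 0.078 (SE), limma adjusted p = 1.75e-09), and its close relative Usp12 was 1.60-fold lower. Usp25 had 4731, 3625, 3083, 2707 and 2814 normalised reads in leukaemia libraries, against 8072, 9398, 8554, 9416 and 8687 in myeloid libraries. Leukaemia replicate 1 was the highest of its group by a wide margin, and no leukaemia library reached a myeloid one. Usp25 was 2.60-fold lower (log2 difference -1.27 ± 0.12 (SE), limma adjusted p = 2.46e-07). Its paralogue Usp28, which stabilises MYC and 53BP1, was 1.18-fold higher (568 ± 41.9 normalised reads in leukaemia libraries and 483 ± 24.6 in myeloid libraries), with a log2 difference within 0.01 of 0 under quantile normalisation. Usp10, which acts on p53 and on stalled ribosomes, had 1159, 1396, 1247, 1272 and 1339 normalised reads in leukaemia libraries, against 515, 493, 492, 342 and 465 in myeloid libraries. It was 2.78-fold higher (log2 difference 0.93 ± 0.065 (SE), limma adjusted p = 1.72e-08), and myeloid replicate 4 stood below the other 4. Usp36, a nucleolar enzyme that stabilises MYC, was 2.36-fold higher, and Usp24 was 1.49-fold higher. Usp15 and Usp38 were 1.95-fold and 1.58-fold lower, but Usp38 did not pass when scaled to the table total (log2 -0.015). Usp4 was 1.49-fold lower, but higher by 0.02 and 0.06 (log2) under quantile and total scaling. Usp9x and Usp34 were 1.21-fold and 1.36-fold lower with overlapping groups, and turned under both other scalings (log2 0.37 and 0.20 when scaled to the total).

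Usp53, whose loss is linked to hearing defects in mice and to cholestasis in people, had 109.8, 109, 157, 67.1 and 79.8 normalised reads in leukaemia libraries, against 520.0, 578, 598, 785 and 625 in myeloid libraries. Every leukaemia library lay far below every myeloid library, and leukaemia replicate 3 was the highest of its group. Usp53 was 5.95-fold lower (log2 difference -1.11 ± 0.079 (SE), limma adjusted p = 2.15e-08). Usp31 was 2.71-fold higher, and Usp37, which acts on cyclin A in the cell cycle, was 2.2-fold higher; both were chosen for mention after their values were seen. Usp39 and Usp45 were 1.35-fold and 1.47-fold lower with overlapping groups, and higher by 0.21 and 0.11 (log2) when scaled to the table total.

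**Figure D4:**
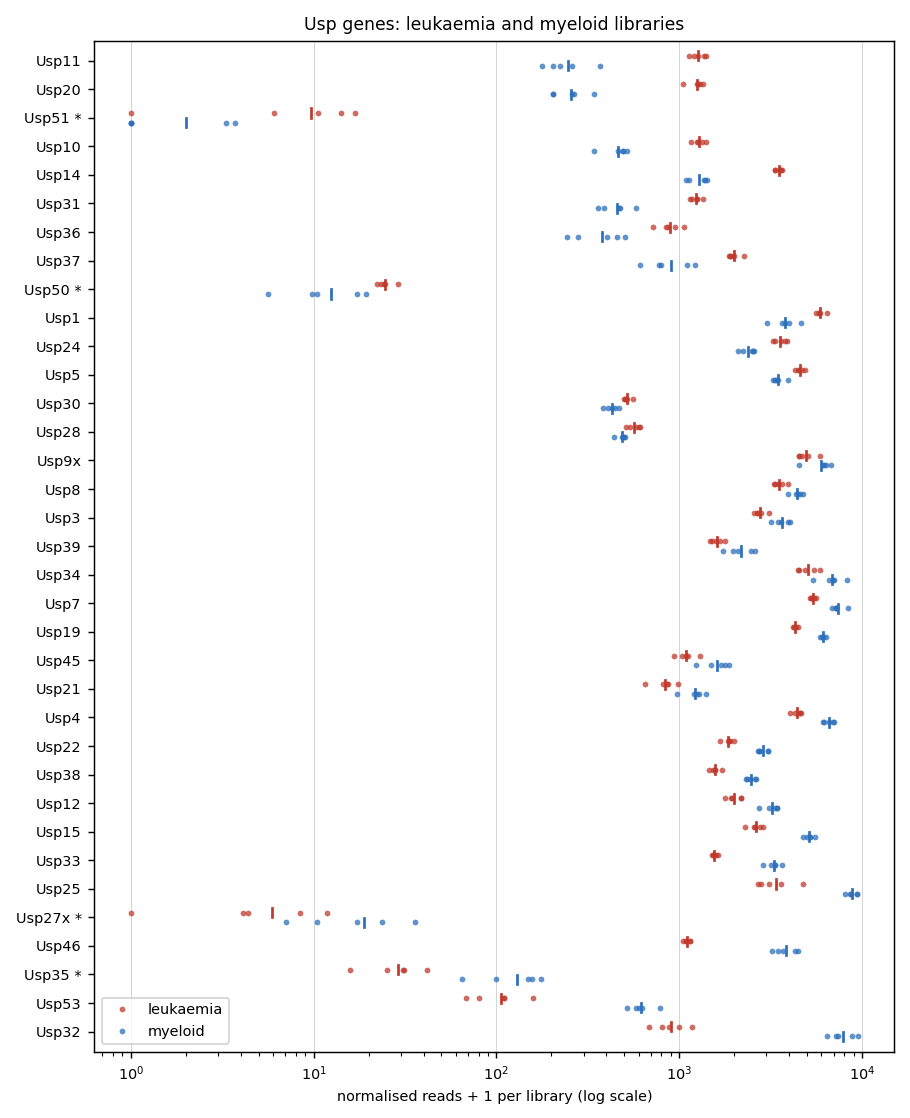
Normalised reads plus 1 (log scale) of all 35 Usp genes in each library, with the 5 leukaemia libraries in red drawn above the 5 myeloid libraries in blue and a bar at each group's mean; genes are ordered by the ratio of means after adding 1 read to each and an asterisk marks genes below the filter. Usp11 stands at the top, 5.18-fold higher in leukaemia before 1 is added, and Usp32 at the bottom.

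Several pairs of closely related enzymes moved apart; the pairs were chosen after their values were seen. Usp20 rose while Usp33 fell, Usp11 rose while its relatives Usp4 and Usp15 fell, and Trim28 rose while Trim33 fell. Ube2e1 rose while Ube2d3 fell, Ube2q2 rose while Ube2q1 fell, Rnf168 rose while Rnf169 fell, Rnf144b rose while Rnf144a fell, and Usp25 fell while Usp28 rose. In Usp20 and Usp33, Ube2e1 and Ube2d3, Rnf144b and Rnf144a, and Trim28 and Trim33 these directions were the same under all 3 scalings. Exceptions were Usp4 and Ube2q1, whose falls turned under both other scalings, Rnf169, whose fall was within 0.01 of 0 when scaled to the total, and Usp28, whose rise was within 0.01 of 0 under quantile normalisation. Other relatives moved together, with Usp46 and Usp12, Rnf20 and Rnf40, Rnf19a and Rnf19b, and Rnf13, Rnf149, Rnf130 and Rnf167 all lower with the size factors. Scaled to the total, Usp12, Rnf20 and Rnf40 no longer passed (log2 -0.04, -0.08 and -0.03).

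**Figure D5:**
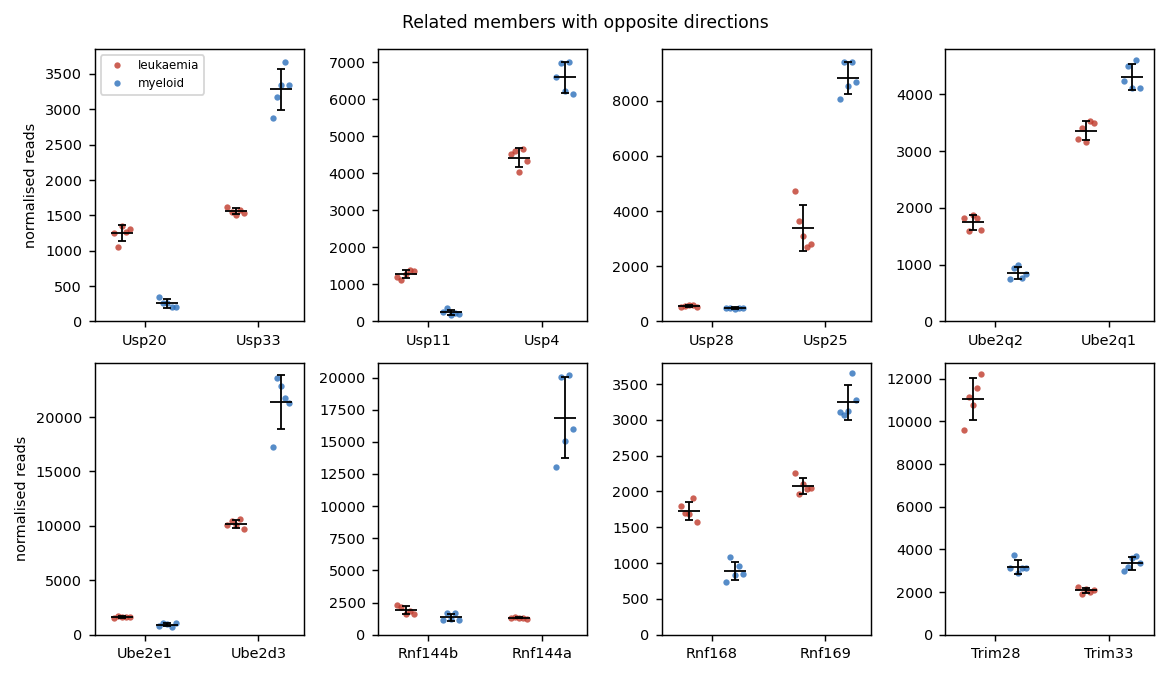
Normalised reads (linear scale) of 8 pairs of related genes, with dots for libraries, leukaemia in red at the left and myeloid in blue at the right of each gene, a bar at the mean and whiskers of 1 SD (n = 5 each). In each panel the left gene is higher in leukaemia and the right gene lower with the authors' size factors; under the other scalings Usp4, Ube2q1, Usp28 and Rnf169 do not keep this, as described in the text.

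The remaining genes below the filter had few reads and no test of their own in the fit. Among Rnf genes, Rnf165 had 78.9, 76.8, 73.3, 47.5 and 71.4 normalised reads in leukaemia libraries and 0 reads in every myeloid library, at least 94.0-fold higher against a floor of 3 counts over the group. Rnf165 (Arkadia-like) is known from BMP signalling in neurons. Rnf152 averaged 116 ± 26.8 and 12.9 ± 12.2, Rnf17 71.4 ± 25.3 and 9.90 ± 6.49, Rnf186 12.9 ± 6.39 and 2.06 ± 3.05, Rnf180 28.1 ± 11.9 and 8.63 ± 9.63 and Rnf227 114 ± 12.7 and 55.8 ± 25.7 normalised reads in leukaemia and myeloid libraries (mean ± SD, n = 5 each), with the myeloid mean the lower one for each of these and overlapping libraries for Rnf180 and Rnf227. Rnf150 was the exception with 47.2 ± 9.93 normalised reads in leukaemia libraries and 177 ± 95.9 in myeloid libraries. Trim46 averaged 186 ± 27.9 and 23.5 ± 10.4, Trim66 61.7 ± 9.45 and 2.36 ± 2.86 and Trim2 27.8 ± 7.11 and 8.08 ± 9.25 in leukaemia and myeloid libraries. Trim29 had 115 recovered reads over the leukaemia libraries and 2 over the myeloid libraries, a ratio of 37.0 with a counting interval of 10.02 to 309.3 (95%). On the other side, Trim62 averaged 39.7 ± 13.6 and 96.1 ± 42.9, Trim17 9.91 ± 5.74 and 37.4 ± 12, Trim30c 30.1 ± 10.02 and 57.9 ± 33.3 and Trim34b 24.5 ± 7.59 and 48.5 ± 14.5 in leukaemia and myeloid libraries, with the myeloid mean higher. Usp35 averaged 28.0 ± 9.52 and 128 ± 45.6 and Usp27x 4.93 ± 4.19 and 17.9 ± 11.5, lower in leukaemia. Usp50 averaged 23.7 ± 2.60 and 11.5 ± 5.65 and Usp51 8.73 ± 6.32 and 1.01 ± 1.39, higher in leukaemia.

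Replicates of both groups lay close together. The median coefficient of variation of the 135 genes was 7.49% in leukaemia libraries and 11% in myeloid libraries, beside 8.91% and 13.2% for all tested genes. Leaving out myeloid replicates 2 and 4 together left 130 of the 135 past the threshold, the 5 lost being Usp30, Rnf123, Usp9x, Rnf121 and Ube2v2. Single libraries decided 5 calls. Usp9x lost its call without leukaemia replicates 2, 4 or 5 or without myeloid replicates 2, 3, 4 or 5 (limma adjusted p = 0.0546 to 0.075). Rnf121 lost its call without leukaemia replicate 3 or without myeloid replicates 2 or 4 (limma adjusted p = 0.0559 to 0.0728). Rnf2 lost its call without leukaemia replicate 2 or without myeloid replicates 3 or 5 (limma adjusted p = 0.0539 to 0.0734). Ube2v2 lost its call without leukaemia replicate 3 or without myeloid replicates 2 or 4 (limma adjusted p = 0.0564 to 0.0787). Usp28 lost its call without leukaemia replicates 3 or 4 or without myeloid replicate 3 (limma adjusted p = 0.051 to 0.0537).

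The rest of the pathway, read from lists of other ubiquitin genes, showed a mixed picture at its source. Of 11 tested genes of ubiquitin and its E1 enzymes, 5 were higher and 6 lower. Sae1, a subunit of the SUMO E1, was 2.13-fold higher. Atg7, the E1-like enzyme of autophagy, was 3.41-fold lower.

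HECT ligases were lower in 17 of 22 tested cases with the size factors, but 10 were called higher and 5 lower when scaled to the table total. The falls were led by Herc4 (3.77-fold lower) and Smurf1 (2.45-fold lower), whereas Huwe1, a large ligase that acts on MCL1 and MYC, was 2.04-fold higher. Core subunits of cullin ligases leaned the other way, with 10 of 15 higher, and 13 when scaled to the total. Ddb1, the adaptor of CUL4 ligases, was 2.02-fold higher (11531 ± 396 normalised reads in leukaemia libraries and 5704 ± 324 in myeloid libraries) and Cul7 4.29-fold higher, while Dcun1d3 and Cul3 were 3.68-fold and 2.01-fold lower. Of 30 other RING and U-box ligases 10 were higher and 20 lower, and 13 and 10 when scaled to the total. Uhrf1, which couples DNA replication to maintenance methylation, was 3.17-fold higher (9496 ± 345 normalised reads in leukaemia libraries and 2997 ± 1015 in myeloid libraries), and the splicing ligase Prpf19 2.69-fold higher. Peli2 and Birc3, both of innate immune signalling, were 6.78-fold and 4.21-fold lower. Of 25 tested genes listed as deubiquitinases outside the USP family 10 were higher and 15 lower, and 13 and 6 when scaled to the total. The list was made by kind, and enzyme activity was not checked gene by gene. By log2 difference the list was led by Uchl3 (5.45-fold higher) and the proteasome subunit Psmd7 (2.23-fold higher) on the higher side and by Otud3 (4.12-fold lower) and Otud5 (2.07-fold lower) on the lower, while Stambpl1, Tnfaip3 and Otud7b had slightly larger folds than Otud5. These are descriptions of lists by count. With the size factors 49.1% of all tested genes were higher and 50.7% lower, and scaled to the total 57.2% were called higher and 27.6% lower.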

How the data were processed

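Total RNA had been isolated with TRIzol, and the sequencing libraries prepared by the NEBNext Ultra RNA method, according to protocols in the labels. These name flow sorting for both cell populations; the series design gives magnetic selection for the myeloid one. The authors deposited 1 table of normalised, variance-stabilised log2 values for 10141 genes in 10 libraries. The aligner HISAT2 (2.0.4 and 2.2.1) and DESeq2 appear in the submitters' processing notes. Build, annotation, read counter and strandedness are not given in the sources used here.

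The lowest value, 8.1823, was the same in all libraries and taken as 0 reads. The stabilising function was inverted under its usual parametric form, and 100.0% of low values (up to 300 reads, tolerance 0.1 read) came out as whole multiples of 1 read, which gave size factors, reads and normalised reads. Both mates of a pair may have been counted.

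Differences were tested with limma 3.58.1 (R 4.3.3, trended prior, group term only, two-sided) on the deposited log2 values of 8079 genes whose mean lay more than 1 unit above the lowest value, with Benjamini-Hochberg adjustment over all of them and a threshold of 0.05. The fit was tested on simulated data. Folds are ratios of mean normalised reads. Exon lengths and overlaps came from GENCODE (all 158 names matched), and promoters and gene order from RefSeq (GRCm38.p6), matched by symbol. In each family the 4 highest and 4 lowest log2 differences without overlap and the gene with the most reads were given library by library, with all genes below the filter named. The members, lists and tests were chosen with earlier results of these data known. Alternatives were quantile normalisation, voom with the size factors or the table total, other filters, no trended prior, a replicate block, adjustment over all annotated genes, and leaving out libraries. Intervals and floors cover counting error only. In the table, 4 rows with a whole number for a name were not used. A few genes of the families and lists are counted but not reported singly here or drawn by name.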

Additional observations from a re-analysis of the deposited data

Results flagged for a closer look

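A library was marked where the gap from the highest or lowest value of its group to the nearest other value, divided by the range of the group, passed Dixon's 95% critical value for 5 samples. The gap ratio was taken on the deposited log2 values, so it does not follow exactly from the normalised reads given beside it. Of 352 groups screened, 21 passed, and chance marks about 1 in 20 groups, so a count of this size is close to what chance gives and no pattern is read from it. Values are given with no explanation, as the gap ratio with the normalised reads of the library and the range of the other 4. Leukaemia replicate 1 stood above the rest of its group for Rnf138 (0.714 gap ratio, 1148 against 891 to 959.5) and stood below the rest of its group for Psmd7 (0.725 gap ratio, 2562 against 2726 to 2791), Rnf126 (0.791 gap ratio, 1355 against 1563 to 1622) and Trim32 (0.775 gap ratio, 311 against 369 to 387). Leukaemia replicate 2 stood above the rest of its group for Rnf217 (0.828 gap ratio, 937 against 847 to 862) and stood below the rest of its group for Rnf2 (0.839 gap ratio, 1323 against 1534 to 1577) and Rnf215 (0.789 gap ratio, 168 against 221 to 237). Leukaemia replicate 3 stood above the rest of its group for Ube2v2 (0.756 gap ratio, 561 against 393 to 431). Leukaemia replicate 4 stood above the rest of its group for Rnf145 (0.750 gap ratio, 1107 against 998 to 1025) and stood below the rest of its group for Rnf150 (0.830 gap ratio, 29.7 against 48.7 to 53.2) and Rnf165 (0.785 gap ratio, 47.5 against 71.4 to 78.9). Myeloid replicate 1 stood above the rest of its group for Trim30c (0.773 gap ratio, 117 against 37.8 to 51.7) and stood below the rest of its group for Rnf170 (0.717 gap ratio, 670.4 against 813 to 875) and Usp9x (0.759 gap ratio, 4512 against 6132 to 6749). Myeloid replicate 2 stood above the rest of its group for Rnf139 (0.823 gap ratio, 1833 against 1516 to 1569) and Trim29 (1.0 gap ratio, 2.36 against 0 in each of the others). Myeloid replicate 3 stood below the rest of its group for Rnf215 (0.808 gap ratio, 297 against 386 to 410.0), Trim21 (0.784 gap ratio, 804 against 1110.0 to 1208) and Usp28 (0.727 gap ratio, 441 against 485 to 502). Myeloid replicate 4 stood above the rest of its group for Usp7 (0.737 gap ratio, 8344 against 6886 to 7245) and stood below the rest of its group for Usp10 (0.734 gap ratio, 342 against 465 to 515).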

How the results depend on the processing

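Of the table's tested genes 99.8% differed, its myeloid libraries carry more reads per size factor, and which scaling is right was not tested. Depth limits the 23 genes below the filter, some of them at a few reads. Read counter and strand setting are not known, so overlapping genes may share reads, and near copies may do so too.

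Quantile normalisation gave 7 lower E2 genes and 11 lower DUB genes, with medians of 0.07 (E2), -0.33 (E3) and 0.07 (DUB), so the E2 and DUB medians changed sign. Reads scaled to the table total gave 14 higher and 5 lower E2 genes, 36 lower E3 genes and 6 lower DUB genes, with medians of 0.36, -0.07 and 0.21, the E2 and DUB medians again changing sign. Without the filter the E3 median was -0.39 over 100 genes; with the stricter filter it was -0.63 over 67 genes, 14 of them higher, and 7 DUB genes were higher among 25, these counts falling with the number tested. With voom on recovered reads and the authors' size factors the E3 median was -0.71 and the DUB median -0.43, because voom does not shorten differences of low genes. The other summary values moved little, and all directions held without any single library. Of 135 genes tested, 132 to 135 passed when a library was left out, 124 when p was adjusted over all 55450 annotated genes, 115 under quantile normalisation and 106 under total scaling, where 14 were called in the other direction.

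The labels do not say that a shared replicate number marks a shared mouse, so the numbers were not used as pairs. The correlation of same-numbered deviations was 0.13, 0.23, 0.32, 0.29 and -0.02 over pairs 1 to 5, above 0.1 in 4 of 5 pairs, and 2 of 5 leukaemia libraries matched their own number best. With a replicate block 134 of the 135 genes passed (18 lower DUB genes in place of 19, Usp9x being the loss).

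Of 153 genes named with a test, 15 changed sign under quantile normalisation, with log2 differences of 0.01 for Rnf2 and Ube2z, 0.14 for Rnf213 and Ube2d2a, 0.07 for Rnf216 and Usp3, 0.32 for Ube2l3, 0.16 for Ube2q1, Usp34 and Usp7, 0.08 for Usp19, -0.0014 for Usp28, 0.02 for Usp4, 0.19 for Usp8, 0.30 for Usp9x. Under total scaling 30 changed sign, with log2 differences of 0.37 for Rnf121 and Usp9x, 0.10 for Rnf139, 0.14 for Rnf14, 0.15 for Rnf170 and Ube2d1, 0.46 for Rnf2, 0.17 for Rnf213, 0.30 for Rnf216, 0.12 for Rnf41, 0.01 for Rnf5 and Usp22, 0.28 for Trim21, Ube2q1 and Ube2z, 0.24 for Trim23 and Usp3, 0.16 for Trim41, 0.22 for Trim5, 0.21 for Ube2d2a and Usp39, 0.36 for Ube2g1, 0.39 for Ube2l3, 0.13 for Usp19, 0.08 for Usp21, 0.20 for Usp34, 0.06 for Usp4, 0.11 for Usp45, 0.18 for Usp7, 0.32 for Usp8. No other setting reversed a named gene. Why these calls move with the scaling beyond the shift of all genes was not tested.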

Other observations

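Ligases outside the role lists added values of the same kind, and all genes in this paragraph and the next were chosen after their values were seen. Rnf10, Rnf14 and Rnf25, which ubiquitinate ribosomes or the factors of ribosome stalling, were 2.28-fold lower (4851 ± 520.1 normalised reads in leukaemia libraries and 11058 ± 1668 in myeloid libraries; SD, n = 5 each), 1.41-fold and 3.11-fold lower in leukaemia, Rnf14 turning to a log2 difference of 0.14 when scaled to the table total. Rnf44 was 2.81-fold lower. Rnf115, a ligase of endosomal sorting, was 2.74-fold lower, and Rnf141 and Rnf181 were 3.63-fold and 1.81-fold lower. Rnf6 was 1.63-fold lower, but did not pass when scaled to the table total (log2 -0.07). Rnf123 (KPC1), which processes the p105 precursor of NF-kB, was 1.17-fold higher with overlapping groups, and Rnf157 was 1.40-fold higher at low values. Rnf113a1, a spliceosome-linked ligase, was 3.98-fold lower.

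Among the remaining Trim genes, Trim11 fell most and was 3.01-fold lower (1799 ± 119 normalised reads in leukaemia libraries and 5419 ± 422 in myeloid libraries). Trim8, Trim39, Trim16 and Trim3 were 1.91-fold, 1.77-fold, 1.64-fold and 2.30-fold lower, but Trim16 did not pass when scaled to the table total (log2 -0.07). Trim41 and Trim23 were 1.40-fold and 1.32-fold lower with the size factors, Trim23 with overlapping groups, and turned to log2 differences of 0.16 and 0.24 when scaled to the table total. Trim37, known from peroxisomes and centrosomes, was 2.89-fold higher (2540.1 ± 127 normalised reads in leukaemia libraries and 878 ± 178 in myeloid libraries), and Trim32, a muscular dystrophy gene, was 2.93-fold higher. Trim35, Trim65 and Trim68 were 1.56-fold, 1.63-fold and 2.43-fold higher.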
